A study of Mus musculus with 2 samples.

Results

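The lncRNA Fendrr, the genes that lie beside it on chromosome 8 and 4 transcription factors of mesenchyme elsewhere in the genome were compared between 2 RNA-seq libraries of primary mouse hepatocytes. The 10 genes were taken by name through their RefSeq identifiers, Fendrr from a table of 37072 annotated lncRNA transcripts and the other 9 genes from a table of 27457 mRNA transcripts. Of these mRNA transcripts 27049 were paired with a gene symbol, which gave 20317 genes. Fendrr, Foxf1, Mthfsd, Foxc2, Foxl1 and Irf8 form the group beside Fendrr, and Tcf21, Lhx2, Gata4 and Gata6 form the group elsewhere. Together they have 11 listed transcripts, because Mthfsd has 2.

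Both libraries came from wild-type male C57BL/6J mice, which were 5 weeks old when obtained. The control library came from mice given intraperitoneal oil, and the model library from mice given a 20% CCl4 solution in mineral oil at 2.5 ml CCl4 per kilogram, 2 times per week. The labels give 8 weeks of injection and the study's methods give 4 weeks. CCl4 is a solvent that injures hepatocytes when they metabolise it, and its repeated injection is a common model of liver fibrosis. The cells were freed by enzyme perfusion and separated on a density gradient, so cells of other types can remain among the hepatocytes. The study examined the purity of isolated hepatocytes and other liver cells by qRT-PCR of hepatocyte, stellate cell and Kupffer cell markers. The number of mice behind a library is not stated. There was 1 library per group, so no difference given here has a replicate check or a test, and a call is a statement of size alone.

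The level of a transcript was given as RPKM, reads scaled by transcript length in kilobases and by library size, which allows levels of different genes to be compared per length. The tables list every value under 1 RPKM as 0. A change is therefore the log2 ratio of CCl4 to oil RPKM with every value under 1 set to 1, and a change against a listed 0 is the smallest that the tables allow. The RPKM steps of short annotated lncRNAs gave scaling totals of 57992620 (oil) and 64655487 (CCl4) reads. With these totals 1 RPKM was worth 58.0 and 64.7 reads per kilobase. They were taken to hold for the mRNAs too, which was not checked. Over all genes compared the median log2 change was 0.33, which is contained in each change given here unless a scaling is named.

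Fendrr is transcribed away from Foxf1, its head-to-head neighbour, and both are known from the lateral plate and splanchnic mesoderm of the embryo, where they serve the development of the heart, the body wall and the gut. FOXF1 is a forkhead factor that acts below hedgehog signals in mesenchyme. In the liver, mesenchyme is represented mainly by the stellate cells, which store vitamin A at rest and deposit collagen when activated, and LHX2, TCF21 and GATA4 are among the factors known from these cells.

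In the GRCm38.p6 annotation (mm10) Fendrr occupies chr8:121054882-121083110 and Foxf1 chr8:121084386-121088154, with 1275 bases between the genes. The sequences around transcription start sites were taken from RefSeq as windows of 250 bases before to 50 bases after the start. Windows were held for 5 of the 10 genes, Fendrr, Mthfsd, Irf8, Tcf21 and Lhx2, with 2 windows each for Irf8 and Lhx2, and not for Foxf1, Foxc2, Foxl1, Gata4 and Gata6. The windows of 4 of these genes are printed, because Fendrr, Tcf21 and Lhx2 were under the listing limit in oil and over it in CCl4, whereas Mthfsd, close to Fendrr, was at similar levels in both libraries. They are the Fendrr window chr8:121083061-121083360 (minus strand), the Mthfsd window chr8:121108288-121108587 (minus strand), the Tcf21 window chr10:22820094-22820393 (minus strand) and the first Lhx2 window chr2:38339031-38339330 (plus strand). Each is written 5′ to 3′ on the strand of the gene, and capitals mark the matches to the motifs searched.
Fendrr: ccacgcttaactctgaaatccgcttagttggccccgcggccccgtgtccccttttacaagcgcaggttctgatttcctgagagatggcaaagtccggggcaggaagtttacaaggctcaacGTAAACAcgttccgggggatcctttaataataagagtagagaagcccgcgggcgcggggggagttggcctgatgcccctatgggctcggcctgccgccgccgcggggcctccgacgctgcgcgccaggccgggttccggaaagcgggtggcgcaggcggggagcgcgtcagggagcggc
Mthfsd: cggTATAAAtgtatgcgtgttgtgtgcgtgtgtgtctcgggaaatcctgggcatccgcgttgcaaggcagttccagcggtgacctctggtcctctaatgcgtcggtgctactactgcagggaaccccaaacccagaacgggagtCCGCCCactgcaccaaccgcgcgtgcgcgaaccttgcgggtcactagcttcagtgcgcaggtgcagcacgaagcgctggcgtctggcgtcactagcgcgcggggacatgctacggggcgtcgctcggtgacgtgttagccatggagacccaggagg
Tcf21: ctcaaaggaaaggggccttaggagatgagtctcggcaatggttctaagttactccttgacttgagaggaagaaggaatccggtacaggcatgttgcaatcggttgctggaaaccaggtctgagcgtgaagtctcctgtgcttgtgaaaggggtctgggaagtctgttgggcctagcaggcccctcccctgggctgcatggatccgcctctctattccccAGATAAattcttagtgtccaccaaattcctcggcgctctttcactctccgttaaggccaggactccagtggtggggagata
Lhx2: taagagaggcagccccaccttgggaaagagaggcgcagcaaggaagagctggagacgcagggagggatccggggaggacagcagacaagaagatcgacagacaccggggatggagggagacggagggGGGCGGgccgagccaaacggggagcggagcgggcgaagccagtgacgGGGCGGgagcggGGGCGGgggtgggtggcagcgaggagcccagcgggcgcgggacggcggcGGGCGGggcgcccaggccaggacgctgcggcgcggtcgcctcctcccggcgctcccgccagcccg

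The motifs were searched on both strands in the 7 windows of these genes and in all 32851 windows of the table. No match overlapped a match of another motif. The forkhead motif GTAAACA (reverse TGTTTAC) was found at position -129 of Fendrr, counted from the start base as 0, and in no other of the 7 windows, against 3.65% of all windows. The GATA motif AGATAA (reverse TTATCT) was found at position -31 of Tcf21, against 11.2% of all windows. The GC box GGGCGG (reverse CCGCCC) stood in 3 of the 7 windows, those of Mthfsd, the first of Irf8 and the first of Lhx2, which held it 4 times, against 35.7% of all windows. The TATA motif TATAAA (reverse TTTATA) was found at position -31 of Irf8 and at position -247 of Mthfsd, against 13.6% of all windows. The E-box CAGCTG (16.3% of all windows) and the homeobox core TAATTA (5.29%) were in none of the 7. The Lhx2 window printed above was the richest of the 4 in G and C (74.7%), and the Tcf21 window (53.3%) was close to the median of all windows (52.7%). A match is a description of the letters and not of a bound site.

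Of the 10 genes, 7 were higher in the CCl4 library by a log2 change of at least 1, none was lower, Mthfsd changed less than that, and Foxc2 and Foxl1 were listed at 0 in both libraries. For comparison, 16.6% of the 16680 mRNA transcripts with at least 1 RPKM in 1 library were higher by the same size, and 10.9% of the 9754 annotated lncRNA transcripts were. The mRNA calls were 2764 higher and 870 lower, and after median-of-ratios scaling 1489 higher and 1587 lower, when 5 of the 10 genes were called. Beside Fendrr 3 of the 4 genes that could be compared were called, and elsewhere 4 of 4 were called. Fendrr, Foxf1, Tcf21 and Lhx2 could be compared only because of their CCl4 value and could differ in no other direction, and of the genes measured in both libraries 1 of 2 beside Fendrr (Irf8) and 2 of 2 elsewhere were called. The median change was 1.15 beside Fendrr and 2.05 elsewhere, with lower bounds counted at their bound. The 10 genes are not replicates and were chosen with results in view, so the groups are set side by side without a test.

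**Figure D1:**
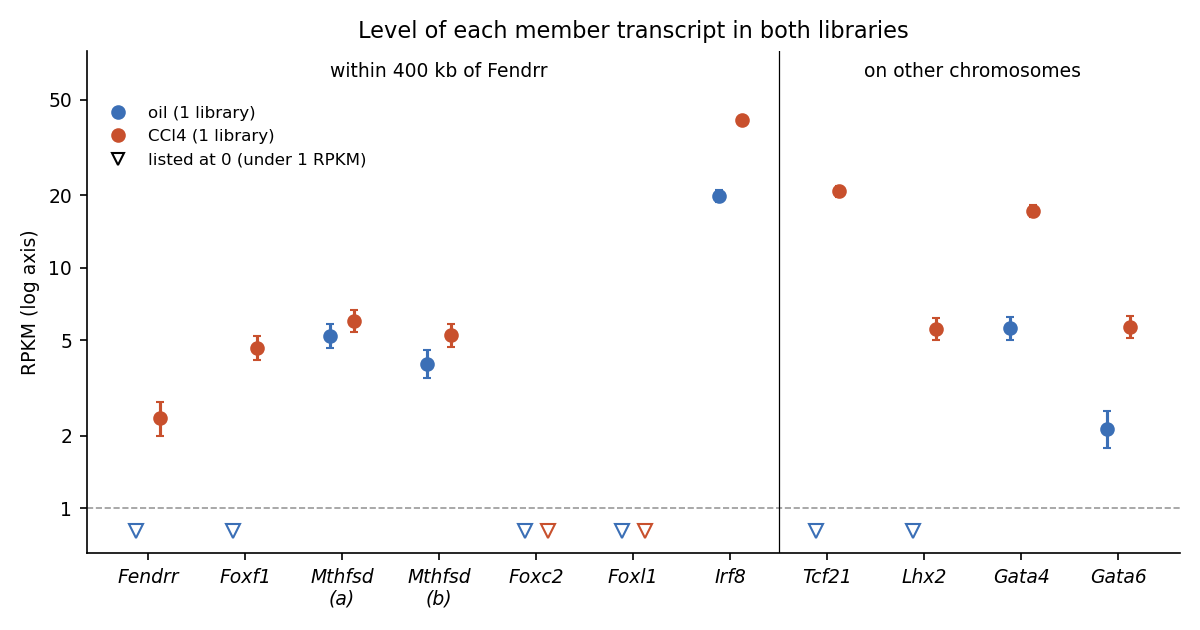
RPKM (log axis) of each of the 11 member transcripts in the oil and the CCl4 library, 1 point per library, with exact 95% Poisson intervals for 1 kb of transcript and open triangles for values listed at 0. Mthfsd (a) is NM_001166482 and (b) is NM_172761. In 4 genes (Fendrr, Foxf1, Tcf21 and Lhx2) the oil library is listed at 0 and the CCl4 library lies between 2.37 and 20.8 RPKM.

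Fendrr (NR_045471) was listed at 0 in oil and at 2.37 RPKM in CCl4. It was thus at least 2.37-fold higher in the CCl4 library, a log2 change of at least 1.24. After median-of-ratios scaling this bound was 0.92, under the size of a call. The CCl4 value rests on about 153 reads per kilobase, with a counting interval of 2.01 to 2.77 RPKM. By this smallest change Fendrr ranked 598 among the 9754 lncRNA transcripts compared. Of these, 1665 were listed at 0 in oil and are ordered by their CCl4 value alone, so the rank is not one of true changes. The ranks of Foxf1, Tcf21 and Lhx2 below are read in the same way. A FANTOM3 cDNA clone whose name is a synonym of Fendrr, 1110050K14, was listed separately at 0 in oil and 2.01 RPKM in CCl4, so that this entry had the same order of the libraries. Whether reads were shared between both entries is not given in the sources used here.

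Foxf1 (NM_010426) was listed at 0 in oil and at 4.64 RPKM in CCl4. The smallest change was 4.64-fold, or 2.21 on the log2 scale, rank 288 of the 16680 mRNA transcripts. In the CCl4 library the level of Foxf1 was 1.96 times that of Fendrr, with a counting interval of 1.61 to 2.40 that does not allow for reads listed under the clone 1110050K14. Both genes of the head-to-head pair were therefore under the limit in oil and over it in CCl4, and their relative level in oil cannot be read from the RPKM listed.

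Mthfsd, a gene named for a methenyltetrahydrofolate synthetase domain, lies at chr8:121091628-121108413 on the far side of Foxf1. Its transcript NM_001166482 was at 5.22 RPKM in oil and 6.02 in CCl4. The log2 change of 0.20 had a counting interval of -0.02 to 0.43. Its transcript NM_172761 was at 3.98 and 5.25 RPKM, a log2 change of 0.40 with an interval of 0.15 to 0.64. Both changes were close to the shift of the median gene, and after median-of-ratios scaling, which divides the CCl4 library by 1.25, the change of the first transcript was -0.12, the opposite direction.

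Foxc2 (NM_013519, chr8:121116171-121118895), a forkhead factor of blood and lymph vessels, and Foxl1 (NM_008024, chr8:121127685-121130644), a forkhead factor of gut and liver mesenchyme, were listed at 0 in both libraries. Each was thus under 1 RPKM in both, and the listing limit allows no statement on a difference. The forkhead genes on the far side of Mthfsd therefore did not reach the level at which Foxf1 was listed in the CCl4 library.

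Irf8 (NM_008320), a factor of macrophages, dendritic cells and B cells, lies at chr8:120736358-120756694 and was the most abundant of the 10 genes in both libraries. It was at 19.9 RPKM in oil and 41.3 in CCl4. The log2 change was 1.05 with a counting interval of 0.95 to 1.16, computed for 1 kb of transcript. At that assumed length the interval includes the size used for a call, and a longer transcript would have a narrower one. After median-of-ratios scaling the change of Irf8 was 0.73 and the bound of Fendrr was 0.92, and with both values under the size of a call, 1 of the 4 genes compared beside Fendrr (Foxf1) was still called.

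Tcf21 (NM_011545, chr10:22817263-22820143), a basic helix-loop-helix factor of mesenchyme, was listed at 0 in oil and at 20.8 RPKM in CCl4, at least 20.8-fold higher or 4.38 on the log2 scale. This smallest change was above those of Lhx2, Foxf1 and Fendrr, whose order by true change is not given by such bounds, and it ranked 10 among the 16680 mRNA transcripts. Tcf21 was under the limit in oil, as were Foxf1 and Fendrr, but in CCl4 it was the second most abundant of the 10.

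Lhx2 (NM_010710, chr2:38339271-38369737), a LIM homeobox factor known for keeping stellate cells at rest, was listed at 0 in oil and at 5.55 RPKM in CCl4. It was at least 5.55-fold higher, or 2.47 on the log2 scale, rank 179. The CCl4 value had a counting interval of 4.99 to 6.16 RPKM.

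The GATA factors differed from these in being measurable in both libraries. Gata4 (NM_008092, chr14:63198914-63271712), a zinc finger factor of heart, liver endothelium and stellate cells, was at 5.62 RPKM in oil and 17.2 in CCl4. Its log2 change was 1.62 with a counting interval of 1.44 to 1.80. Gata6 (NM_010258, chromosome 18, 11052510 to 11085636), a related factor of mesoderm and endoderm, was at 2.14 RPKM in oil and 5.69 in CCl4. Its log2 change was 1.41 with an interval of 1.12 to 1.72, which overlaps that of Gata4.

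In the CCl4 library the levels per length ran from Irf8 (41.3 RPKM) through Tcf21 (20.8), Gata4 (17.2), Mthfsd (6.02), Gata6 (5.69), Lhx2 (5.55) and Foxf1 (4.64) to Fendrr (2.37). Counting error could not separate Mthfsd from Gata6, at a ratio of 1.06 (0.91 to 1.22), or Gata6 from Lhx2, at a ratio of 1.02 (0.88 to 1.19). Tcf21 exceeded Gata4 by 1.21 times (1.11 to 1.31) and Lhx2 exceeded Foxf1 by 1.20 times (lower limit 1.02). Both lay beyond the counting error computed, which may be too small where reads are PCR copies. The spread between mice is not known. In oil the order was Irf8, Gata4, Mthfsd and Gata6, and the other 6 genes were under 1 RPKM. There the intervals of Gata4 (5.03 to 6.27 RPKM) and Mthfsd (4.65 to 5.85 RPKM) overlapped.

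The neighbourhood of Fendrr was taken as the 15 protein-coding genes on each side, of which 27 had a listed mRNA and 22 could be compared. In that set 4 genes were higher and 1 was lower by a log2 change of at least 1, against 16.5% higher and 5.39% lower of the 12012 genes compared. The share higher was near that of all genes, and the median was 0.34, beside 0.33 over all genes. The 4 higher genes were Foxf1, Irf8, Gins2, a subunit of the GINS replication complex, and Cotl1, which encodes an actin-binding protein. Gins2 was listed at 0 in oil and at 4.25 RPKM in CCl4, a log2 change of at least 2.09. Cotl1 was at 38.8 RPKM in oil and 134 in CCl4, a log2 change of 1.78. The lower gene, 1190005I06Rik, was at 4.49 and 2.07 RPKM, a log2 change of -1.12. Of these few calls, those other than Foxf1 lay on the Irf8 side of Fendrr. After median-of-ratios scaling Car5a, on the Foxf1 side, was also lower by the size of a call (-1.23). No protein-coding gene of the annotation begins between Irf8 and Foxf1. The other listed lncRNA of the region with a symbol, 1700030M09Rik, was at 0 in both libraries.

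**Figure D2:**
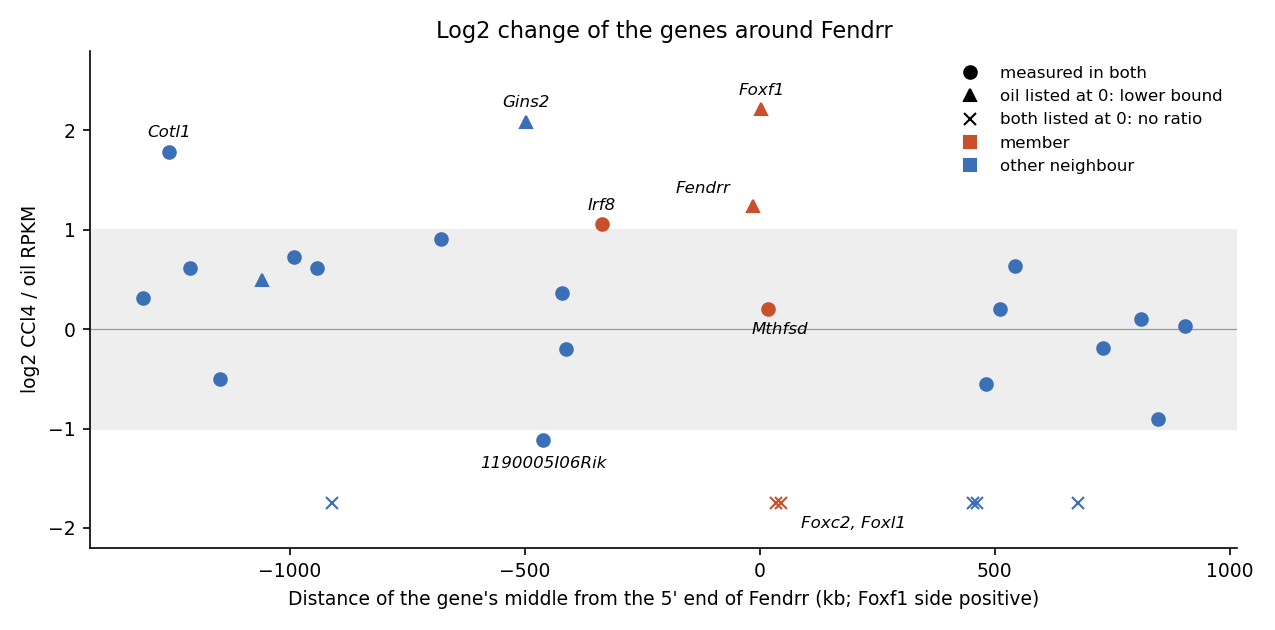
Log2 ratio of CCl4 to oil RPKM of Fendrr and its annotated neighbours against the distance in kb of the middle of each gene from the 5′ end of Fendrr, with the grey band marking changes under the call. Triangles are lower bounds, and crosses at the bottom mark genes listed at 0 in both libraries, which have no ratio. Foxf1 (at least 2.21) and Fendrr (at least 1.24) lie above the band, and Mthfsd (0.20), their next neighbour, lies inside it.

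New lncRNAs, absent from the annotation and listed with read counts, were searched within 200 kb of the 10 genes. There were 7, near Foxf1, Irf8, Tcf21 and Gata4, and all 7 had more reads in the CCl4 library by a log2 ratio of at least 1, against 32.9% of the 1443 new lncRNAs. Their counts, lengths and RPKM imply scaling totals of 62438197 (oil) and 70960849 (CCl4) reads, which were used for their ratios. These differ from the totals of the annotated lncRNAs for a reason not given in the sources used here. The 7 stand on few reads, 26 in oil and 167 in CCl4 in all, and each was under 1 RPKM in both libraries. With at most 7 oil reads and at least 14 CCl4 reads each, they may be listed mainly through their CCl4 reads. Their direction may thus not have been free, and 3 of them share the Gata4 locus.

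In the 1275 bases between Fendrr and Foxf1 lay TCONS_00078898 (chr8:121083527-121084025, plus strand), 417 bases beyond the 5′ end of Fendrr and 361 bases before Foxf1. It had 3 reads in oil and 16 in CCl4, a depth-scaled ratio of 4.69 with an exact interval of 1.34 to 25.1. Beside Irf8, TCONS_00078284 (chr8:120767471-120769003, minus strand) had 2 and 14 reads, a ratio of 6.16 (1.41 to 55.8). Both were thus higher in the CCl4 library, as were the annotated genes they lie next to. Near Tcf21, TCONS_00009447 (chr10:22822200-22822925, plus strand) had 0 and 17 reads. Against a floor of 3 reads in place of the 0 the ratio was 4.99, and the exact interval has a lower limit of 3.63 and no upper limit.

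Near Gata4 lay 4 new lncRNAs, all listed on the plus strand. Of these 3 were inside the span of the gene, within 5474 bases of each other. TCONS_00026390 (chr14:63258665-63259706) had 7 reads in oil and 29 in CCl4, a ratio of 3.65 (1.56 to 9.86). TCONS_00026391 (chr14:63260140-63260980) had 2 and 25 reads, a ratio of 11.0 (2.74 to 95.8). TCONS_00026392 (chr14:63262083-63264138) had 6 and 43 reads, a ratio of 6.31 (2.67 to 18.1). They share a locus, so they do not count as separate observations. The strand setting of the libraries is not given, so reads of unspliced Gata4 RNA could not be told apart from theirs. The fourth, TCONS_00026383 (chr14:63079785-63080530), lay outside the gene and had 6 and 23 reads, a ratio of 3.37 (1.34 to 10.1). No new lncRNA was listed within 200 kb of Lhx2 or Gata6.

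**Figure D3:**
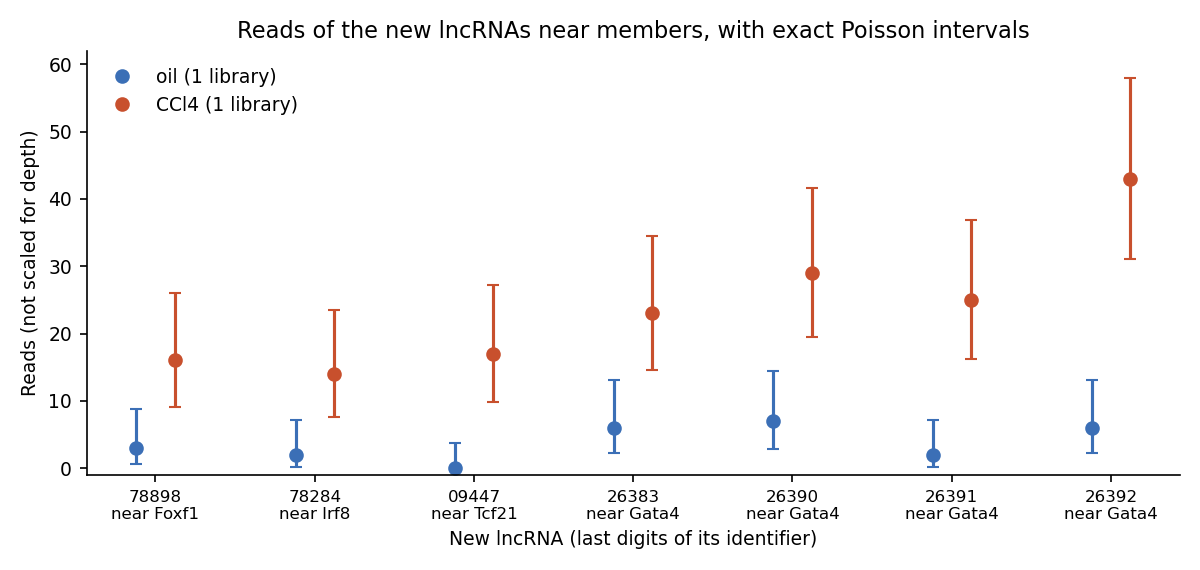
Read counts, not scaled for depth, of the 7 new lncRNAs near the genes in the oil and the CCl4 library, 1 point per library, with exact 95% Poisson intervals. The oil counts run from 0 to 7 and the CCl4 counts from 14 to 43.

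The families of the 10 genes were then counted as gene lists, beside 16.5% higher and 5.39% lower of all genes compared and a median of 0.33. Of 39 forkhead genes, 19 could be compared, of which 3 were higher, 2 were lower and 14 were neither, with a median of 0.41. The higher share was thus near that of all genes. The higher genes were Foxf1, Foxs1, a forkhead factor of vessel-associated cells, which was listed at 0 in oil and at 3.67 RPKM in CCl4 (at least 1.88 on the log2 scale), and Foxj2, at 2.15 and 4.32 RPKM (1.01). The lower genes were Foxa3, a hepatocyte factor, at 47.7 RPKM in oil and 11.2 in CCl4 (-2.09), and Foxq1, at 10.8 and 2.94 (-1.87). Forkhead genes thus lay on both sides.

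Of 6 GATA genes, 3 were compared, and the 2 higher ones were Gata4 and Gata6. Their cofactors, Zfpm1 and Zfpm2, were not called. Of 14 genes of the LIM homeobox list, 4 were compared and 2 were higher, Lhx2 and Ldb1, the adaptor that binds LIM homeobox proteins, which was at 9.64 RPKM in oil and 21.4 in CCl4 (1.15). After median-of-ratios scaling 1 gene of this list was higher, Lhx2 (at least 2.15). Of the 8 interferon regulatory factors reported here, 7 were compared, and Irf5 (14.9 and 33.4 RPKM, 1.16) and Irf8 were higher. The median of these was -0.04 (0.13 after rescaling without the 10 most abundant mRNAs), and after median-of-ratios scaling no member was higher by the size of a call.

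Of 40 other transcription factors of mesenchyme and stellate cells, 17 were compared, 10 were higher and none was lower, with a median of 1.05, beside 16.5% higher of all genes. That median was 0.72 after median-of-ratios scaling and 1.91 with 0.1 RPKM added. Over all 40 genes, with no filter on low values, it was 0. Of the 17, 8 were compared only because of their CCl4 value, since they were listed at 0 in oil. Hand2, a factor of heart and stellate cells, was listed at 0 in oil and at 14.8 RPKM in CCl4 (at least 3.89 on the log2 scale). Tbx20, a T-box factor of the heart, was listed at 0 and 8.44 RPKM (at least 3.08). Zeb2, a repressor of epithelial genes, was at 4.35 and 16.6 RPKM (1.93). Like Tcf21 and Lhx2, Hand2 and Tbx20 were thus under the limit in oil. Of the 9 genes with at least 1 RPKM in both libraries, 5 were higher.

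Of 21 genes of the hedgehog and BMP signals that act above Foxf1, 14 were compared, 5 were higher and none was lower, with a median of 0.78. After median-of-ratios scaling 3 were higher and the median was 0.45. The ligand Bmp5 was at 1.12 RPKM in oil and 11.4 in CCl4 (3.35), and the ligand Bmp4 was at 1.401 and 2.81 (1.003). The hedgehog co-receptor Gas1 was at 5.23 and 19.8 RPKM (1.92), the transducer Smo at 3.43 and 9.21 (1.43), and the inhibitor Sufu at 1.27 and 3.14 (1.31). The hedgehog ligands Shh, Ihh and Dhh and the effectors Gli1, Gli2 and Gli3 were all listed at 0 in both libraries.

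Fendrr is known to bind the chromatin complexes PRC2 and TrxG/MLL. Of 14 subunits on that list, 13 had a listed transcript and all 13 were compared, with none called in either direction and a median of 0.44. Ezh2, the methyltransferase of PRC2, was listed at 0 in oil and at 1.91 RPKM in CCl4, a bound of 0.93 that stops short of a call. Of 15 genes on a list of folate enzymes, which holds Mthfsd by its name alone, all were compared. Of these 3 were lower and none was higher, with a median of 0.11. The lower ones were Ftcd (84.3 RPKM in oil and 32.7 in CCl4, -1.37), Shmt1 (48.7 and 19.5, -1.32) and Aldh1l1 (344 and 148, -1.22), enzymes abundant in hepatocytes, and Mthfsd was not among them. After median-of-ratios scaling 5 folate enzymes were lower and the list median was -0.22, the opposite direction.

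**Figure D4:**
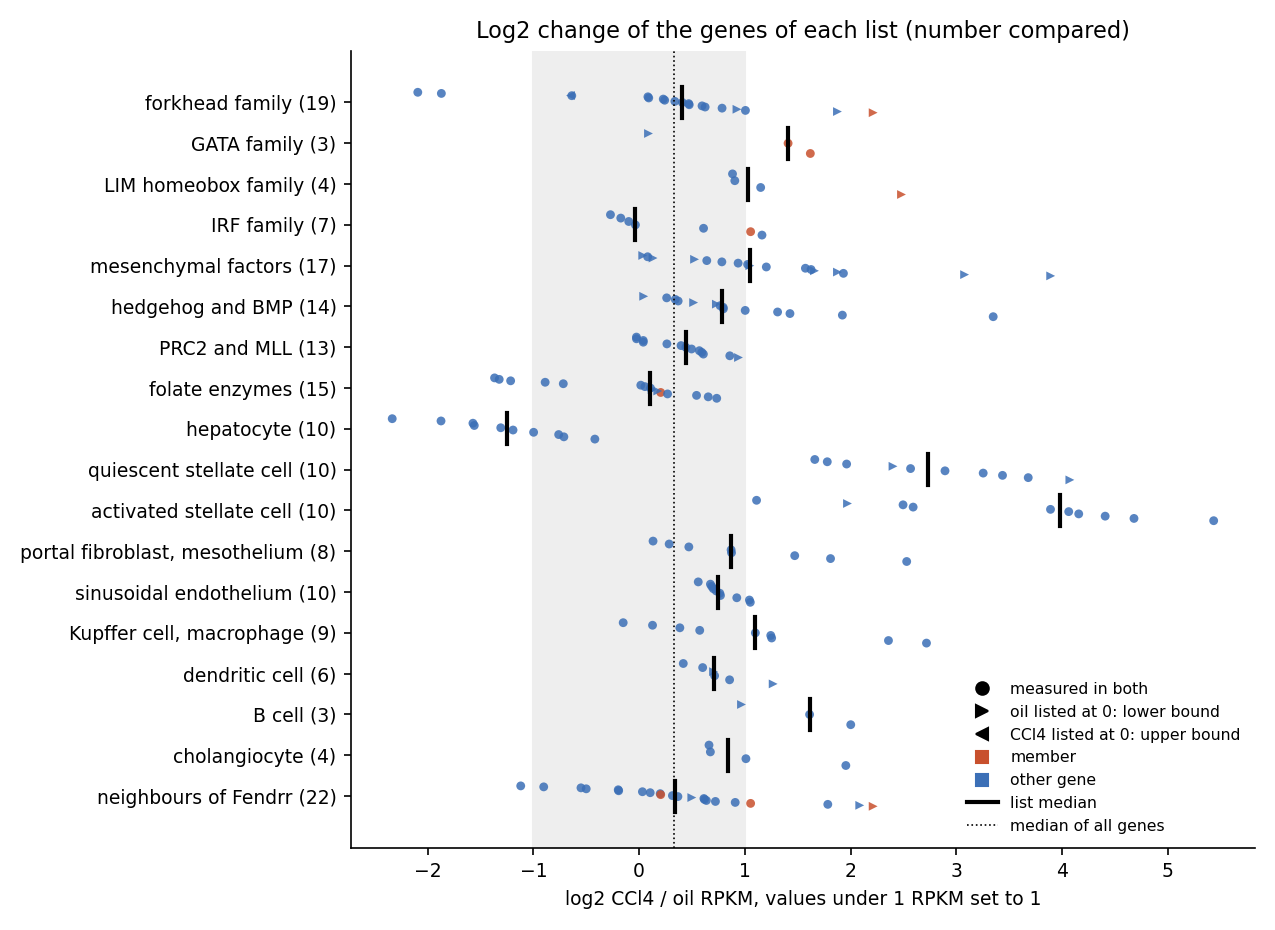
Log2 ratio of CCl4 to oil RPKM for every gene compared of each gene list and cell type marker list, with the number compared in brackets, the list median as a bar and the median of all genes as a dotted line. The grey band marks changes under the call, and arrowheads are bounds. The medians of the lists named for quiescent (2.73) and activated (3.98) stellate cells lie farthest to the right and the hepatocyte median (-1.25) lies to the left.

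Markers of several cell types differed between the same libraries. All 10 hepatocyte markers were listed in both libraries, with a summed level of 17781 RPKM in oil and 10368 in CCl4. Of these, 6 were lower by the size of a call and none was higher, with the largest decreases in Cyp2e1 (645 and 128 RPKM) and Tat (645 and 176 RPKM). The count of lower hepatocyte markers was 9 after median-of-ratios scaling and 1 at a log2 change of at least 2. All 10 genes of the list named for quiescent stellate cells were higher, from a summed 77.7 RPKM in oil to 492 in CCl4. That list holds Pdgfrb, Des and Dcn, which are not confined to cells at rest, so a resting state cannot be read from it. The largest increases there were in Pdgfrb (listed at 0 and 16.8 RPKM), Lrat (1.84 and 23.6 RPKM) and Reln (4.01 and 43.4 RPKM). All 10 markers of activated stellate cells were higher too (9 after median-of-ratios scaling or with 1 RPKM added), from 43.7 to 709 RPKM, with Col1a1 (3.02 and 131 RPKM), Lum (2.13 and 54.5 RPKM) and Col1a2 (6.69 and 142 RPKM) first. In oil Pdgfrb, Ngfr and Lox were listed at 0, so both orders of increase count the changes of these genes at their lower bounds. In a bulk library fewer cells of a type and less RNA per cell cannot be told apart. The part of stellate cell content in the values of Fendrr, Foxf1, Tcf21, Lhx2, Gata4 and Gata6 was not tested here. For Fendrr the study separated the cells of CCl4-treated livers. By qRT-PCR it reported a rise in the hepatocytes and none in the other liver cells.

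Other marker lists were counted in the same way. Of 8 markers of portal fibroblasts and mesothelium, 3 were higher, Eln, Fbln2 and Cd34, from a summed 46.1 RPKM to 89.5. Of 10 markers of sinusoidal endothelium, which also expresses Gata4, 2 were higher, Lyve1 (1.05) and Fcgr2b (1.04), from 608 to 1043 RPKM, a share near the 16.5% of all genes. After median-of-ratios scaling 0 of them were higher. Of 6 cholangiocyte markers, 4 were compared and Spp1 (1.95) and Krt19 (1.01) were higher, from a summed 50.9 to 170 RPKM that was mostly Spp1 (37.4 and 145 RPKM), of which 1 was still called after that scaling.

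Beside the values of Irf8 stand the markers of the cells that express it. Of 9 macrophage and Kupffer cell markers with a listed transcript, 5 were higher, Marco (2.72), Lyz2 (2.36), Adgre1 (1.25), Csf1r (1.24) and Cd5l (1.10), from a summed 1145 RPKM to 3182. The summed rise was mostly Lyz2 (321 and 1645 RPKM). Clec4f (-0.15), Cd163 (0.13), Timd4 (0.39) and Vsig4 (0.57) were not called. Of 8 dendritic cell markers, 6 were compared and Cd209a was higher, listed at 0 in oil and at 2.41 RPKM in CCl4, from 19.0 to 34.7 RPKM, so that 1 of 6 was called, near the 16.5% of all genes, and 0 of the 4 measured in both libraries. Of the 4 B cell markers reported here with a listed transcript, 3 were compared and Cd79a (2.001) and Cd79b (1.61) were higher, from a summed 5.07 to 18.8 RPKM. After median-of-ratios scaling, under which Irf8 was not called, 2 macrophage and Kupffer cell markers, 0 dendritic cell markers and 2 B cell markers were higher. Their part in the change of Irf8 was not tested.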

How the data were processed

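Total RNA of primary hepatocytes was sequenced in 2 libraries, 1 from oil-injected and 1 from CCl4-injected mice. The submitters' processing notes name CASAVA 1.4, TopHat2 and mm10. The counting program, the strand setting and the annotation version are not given in the sources used here. The authors deposited RPKM values (reads divided by transcript length in kilobases and by library size) for mRNAs and annotated lncRNAs, and whole read counts, lengths and RPKM for new lncRNAs. The authors' log2 fold changes, p-values and q-values, which stand beside those RPKM values, were not used.

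In the comparison tables every value under 1 RPKM stands as 0. This was checked on the new lncRNAs, where 1354 of 1354 oil values and 1347 of 1347 CCl4 values under 1 RPKM were listed as 0. Each RPKM was therefore raised to at least 1 before log2 of CCl4 over oil was taken, and a change against a listed 0 is a lower bound. A change was called at an absolute log2 change of at least 1. With 1 library per group no test was possible, and leaving out a replicate was not possible either. RefSeq identifiers were paired with symbols through the GRCm38.p6 gene table, which matched 27049 mRNA and 3563 lncRNA identifiers. A gene stands for its transcript with the highest mean RPKM. Scaling totals were searched on the annotated lncRNAs alone, as the number that gave whole reads (within 0.05 of a read) for genes under 400 bases. That held for 214 of 221 genes (oil) and 227 of 236 genes (CCl4). The totals were applied to the mRNAs without a search of their own. Exact 95% intervals were computed on the reads of 1 kb of transcript. They cover counting error only and not the spread between mice. Where reads are PCR copies, which are not independent molecules, the intervals are too narrow.

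The genes and lists were chosen with earlier results of these data known. Named are all 10 genes studied, from each list the 3 largest called increases and the 2 largest called decreases, and the called neighbours of Fendrr. Remaining genes of short counts, the FANTOM3 clone and the new lncRNAs near the genes were picked after their values were seen. From the lists 2 genes are not reported here and enter no list value. The alternatives were another pseudocount (1 or 0.1 RPKM), scaling, choice of transcript, filter and threshold. The scripts were tested on simulated data. Python 3.11.15, numpy 2.4.6, scipy 1.17.1 and pandas 2.3.3 were used.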

Additional observations from a re-analysis of the deposited data

How the results depend on the processing

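With 1 library per group no replicate could be left out. No paired analysis was possible because each group holds 1 library. Values under 1 RPKM are not given by the RPKM columns, so the changes of Fendrr, Foxf1, Tcf21 and Lhx2 are given without an upper limit. The authors' fold change columns may bear on them and were not used here. Across 5 alternatives the change of Fendrr ran from 0.92 to 4.62, of Foxf1 from 1.89 to 5.57, of Tcf21 from 4.05 to 7.71, of Lhx2 from 2.15 to 5.82, of Gata4 from 1.29 to 1.78, of Gata6 from 1.08 to 1.57 and of Irf8 from 0.73 to 1.22, all higher in CCl4, whereas Mthfsd ran from -0.12 to 0.37. The highest values of Fendrr, Foxf1, Tcf21 and Lhx2 come from taking a listed 0 as 0 with 0.1 RPKM added, and those of the other 4 from rescaling without the 10 most abundant mRNAs.

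At a log2 change of at least 2, 3 of the 10 genes were called (1 beside Fendrr and 2 elsewhere), with 376 mRNA transcripts higher and 137 lower, and 94 lncRNA transcripts higher and 58 lower. There the higher counts were 1 forkhead gene, 0 GATA genes, 1 LIM homeobox gene, 0 interferon regulatory factors, 2 other mesenchymal factors, 1 hedgehog or BMP gene and 2 neighbours, and the lower counts were 1 forkhead gene, 0 folate enzymes and 0 neighbours. At that size 7 genes of the quiescent and 8 of the activated stellate cell list were higher, and 1 hepatocyte marker was lower. Higher too were 1 portal fibroblast and mesothelium marker, 2 macrophage and Kupffer cell markers and 1 B cell marker. Of the endothelial, dendritic cell and cholangiocyte markers 0 were higher.

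With median-of-ratios scaling 1 gene beside Fendrr was called, 1489 mRNA transcripts were higher and 1587 lower, 506 lncRNA transcripts were higher and 704 lower, and the lists had 1 LIM homeobox gene, 0 interferon regulatory factors and 3 hedgehog or BMP genes higher and 5 folate enzymes and 2 neighbours lower. The split of mRNA calls thus turned from 2764 higher and 870 lower to nearly equal counts. Rescaling without the 10 most abundant mRNAs gave 4 LIM homeobox genes and 2 chromatin subunits higher and 0 neighbours lower. It also gave 5 portal fibroblast and mesothelium markers and 2 dendritic cell markers higher.

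With 1 RPKM added, 2065 lncRNA transcripts were higher and 652 lower, and with 0.1 RPKM added 2379 were higher and 738 lower. Under each of these pseudocounts 1 GATA cofactor, 1 chromatin subunit and 2 folate enzymes were higher, and with 1 RPKM added 0 neighbours were lower. With transcripts summed, 1 chromatin subunit and 1 folate enzyme were higher. With at least 1 RPKM in both libraries, which removes genes listed at 0 in oil, 1 forkhead gene, 1 LIM homeobox gene, 5 other mesenchymal factors and 2 neighbours were higher. With at least 20 reads, a limit chosen after seeing the data, 4 new lncRNAs, all near Gata4, remained to be compared and were higher, and those beside Foxf1, Irf8 and Tcf21 dropped out.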

Other observations

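Most mesenchymal factors were under the listing limit in both libraries. Of the 40 other transcription factors of mesenchyme and stellate cells, 31 were listed at 0 in oil and 23 in CCl4. Foxf2, the closest relative of Foxf1, and Foxd1, Foxc1, Prrx1, Tbx18, Osr1 and Twist2 were at 0 in both, and so was Sox9. These were named after their values were seen. Of the 39 forkhead genes, 23 were listed at 0 in oil and 21 in CCl4. Foxa1, a pioneer factor of endoderm, was at 1.57 RPKM in oil and listed at 0 in CCl4, a log2 change of at most -0.65 that was not called. Its relative Foxa2 was at 6.02 RPKM in oil and 3.87 in CCl4, a log2 change of -0.64.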
